A study of Mus musculus with 6 samples.

Results

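The mouse Hox genes were followed through a 4 h exposure of primary murine embryonic fibroblasts (MEFs) to hydrogen peroxide. Hox genes were taken as all array probes whose gene name is Hox, a cluster letter from a to d and a number. Of these, 37 gene names with 48 probes are described, out of 27962 gene names with 41174 probes on the array. Each gene was represented by its probe with the highest mean signal over the arrays. The RefSeq gene table holds 39 mouse Hox genes. The members described were 10 of the Hoxa cluster, 10 of Hoxb, 8 of Hoxc and 9 of Hoxd.

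Hox genes encode transcription factors with a homeodomain. They lie in 4 clusters (on chromosomes 6, 11, 15 and 2), and in the embryo their order along a cluster follows the order of their expression domains from head to tail, so low-numbered genes mark anterior and high-numbered genes posterior levels. Members with the same number in different clusters are paralogues. Cultured fibroblasts keep much of the Hox pattern of the body site they came from, and Polycomb and Trithorax complexes hold silent and active members in their states.

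RNA from these primary fibroblasts, which grew in DMEM with 10% FCS, was hybridised to 6 one-colour Agilent arrays: 2 of untreated cells (0 h), 2 of cells in 1 mM H2O2 for 2 h and 2 of cells in 1 mM H2O2 for 4 h. H2O2 is a cell-permeable oxidant used to impose oxidative stress. The series' design counts 2 independent experiments for each time point, and strain, genotype, sex and embryonic age are not given in the sources used here. No samples analysed here are of untreated cells kept for 2 h or 4 h, so exposure and time in culture cannot be told apart. Each slide held 1 array of each time point, always at the same position, so that position and time cannot be told apart either.

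The 75th percentile of the spot signals lay between 674 and 883 units, 57.3% to 68.0% of spots were well above background, and no spot was saturated. Signals are given below as a percentage of the array's own 75th percentile (scaled signal). Changes are log2 differences of that scaled signal ± SE from 1 limma model over 6 arrays, with p-values adjusted over the 17340 genes tested. "Rose", "fell" and "passed" mean an adjusted p under 0.05. A scaled signal depends on the probe, so no level is compared between genes. All 12 fibroblast markers were well above background on 6 of 6 arrays, while of the 5 pluripotency markers Pou5f1, Dppa3 and Esrrb were on none, Zfp42 on 1 and Nanog on 3. In bulk RNA, fewer cells of a type and less RNA per cell cannot be told apart.

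Of the 37 Hox genes, 25 were well above background on all 6 arrays, 2 (Hoxb1 and Hoxd1) on none and 10 on some. The number detected was 33 and 33 on the untreated arrays, 28 and 35 at 2 h, and 27 and 31 at 4 h. The Hoxa cluster was detected throughout at 8 of 10 members, which include Hoxa2 and Hoxa11. Hoxb was detected throughout at 7 of 10, Hoxc at 5 of 8 and Hoxd at 5 of 9. By position, 4 of 7 anterior members (paralogue groups 1 to 3), 12 of 15 central members (4 to 8) and 9 of 15 posterior members (9 to 13) were detected on all arrays. The posterior Hoxd13, which patterns digits, was among them, while its neighbour Hoxd12 was above background on 1 array.

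**Figure D1:**
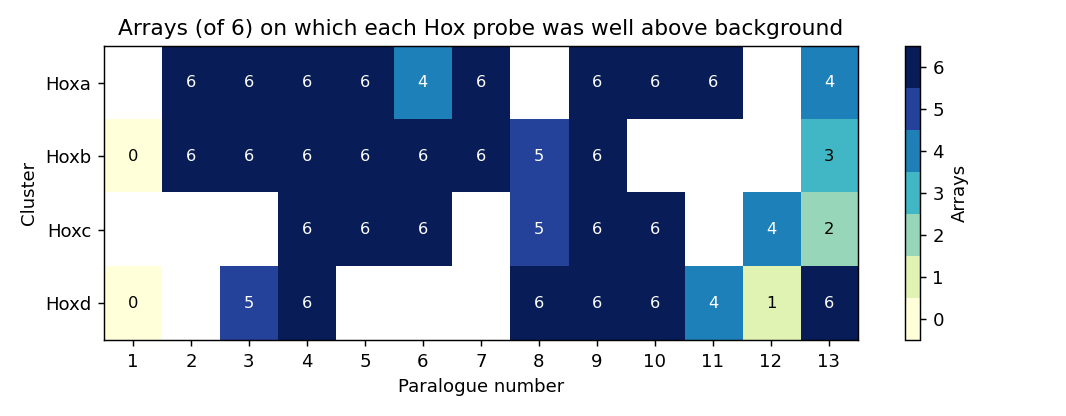
Number of the 6 arrays on which each Hox gene's probe was well above background, written in each cell and shown by colour, with clusters in rows and paralogue numbers 1 to 13 in columns; white cells hold no member described here. Members above background on all 6 arrays fill most of each row up to paralogue number 10, and Hoxb1 and Hoxd1 are at 0.

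Detection of the other 10 members varied between arrays. Hoxa6 and Hoxa13 were well above background on 2 untreated arrays, 1 array at 2 h and 1 at 4 h. Hoxb8 and Hoxd3 were above it on 2 untreated arrays, 1 at 2 h and 2 at 4 h. Hoxc8 gave 2, 2 and 1, Hoxc12 and Hoxd11 gave 2, 2 and 0, and Hoxb13 gave 2, 1 and 0 arrays at 0 h, 2 h and 4 h. The lowest scaled signal of any probe well above background differed between arrays. It was 2.40% and 1.68% on the untreated arrays, 2.95% and 1.81% at 2 h, and 3.93% and 3.3% at 4 h. The mean signal of Hoxb13 was 2.41%, 2.48% and 2.64% at 0 h, 2 h and 4 h, so it did not drop as its detection did. Hoxc13, which acts in hair and nails, had 2.02% and 2.20% in untreated cells, 2.78% and 3.18% at 2 h, and 4.20% and 6.04% at 4 h. It was above background on 1 array at 2 h, 1 at 4 h and on neither untreated array. With the filter on dim probes it was therefore not tested, and no fold is given. In all, 33 members were tested, those with both arrays of some time point well above background. Hoxa6, Hoxa13 and Hoxb13 entered that test only through the untreated group.

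The first question was which Hox transcripts had changed after 2 h in H2O2. Of the 33 tested members, 10 fell, 1 rose (Hoxb9) and 22 did not pass. The members that fell were Hoxa2, Hoxa5, Hoxa9, Hoxa10, Hoxa13 (which entered the test only through the untreated arrays), Hoxb2, Hoxb5, Hoxd4, Hoxd9 and Hoxd10. Thus 30.3% of the tested Hox genes fell, against 15.3% of all genes tested, and 3.03% rose, against 23.7%; either direction passed for 33.3% of the Hox genes and 39.0% of all genes. The median change was -0.26 for the tested Hox genes and 0.12 for all genes. Slide by slide, the Hox median was -0.39 on slide 1 and -0.14 on slide 2. Among the 25 members detected throughout, 9 fell and 1 rose, with a median of -0.21. Over all 37 members with no filter on dim probes, 6 fell and 1 rose. How far a fall exceeds 0 depends on the scaling: the median of all genes was -0.22 with unscaled signals and -0.34 with spike-in scaling, while the Hox median minus that of all genes was -0.37 under each of these, -0.22 after normexp background correction and -0.26 without 2 h replicate 1. After normexp background correction with the same percentile scaling, 3 Hox genes passed in place of 11. Without untreated replicate 1 or without 2 h replicate 1, 6 passed, and without untreated replicate 2, 7 did.

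At 4 h, 15 of 33 fell, 2 rose (Hoxb9 and Hoxc6) and 16 did not pass. Those that fell were Hoxa2, Hoxa3, Hoxa4, Hoxa7, Hoxa9, Hoxa10, Hoxa11, Hoxb2, Hoxb5, Hoxb7, Hoxc10, Hoxd4, Hoxd9, Hoxd10 and Hoxd11. The share that fell was 45.5% of the tested Hox genes and 18.4% of all genes, the share that rose 6.06% against 24.6%, and either direction 51.5% against 43.0%. The Hox median was -0.41 (-0.39 on slide 1 and -0.33 on slide 2) beside 0.067 for all genes. With no filter, 8 of 37 fell and 1 rose. That rise was Hoxc13, above background on neither untreated array, while Hoxb9 and Hoxc6 did not pass. With an untreated or a 4 h array left out, its group holds 1 array, and fewer of the 15 falls and 2 rises passed. The Hox median was then -0.35 without untreated replicate 1 and -0.45 without untreated replicate 2. It was -0.40 without 4 h replicate 1 and -0.43 without 4 h replicate 2. After normexp correction with percentile scaling 5 members passed, with a Hox median of 0.12 beside 0.18 for all genes. The rises of Hoxb9 and Hoxc6 were lost with median-centred, unscaled or spike-in scaled signals. Under these, 0 Hox genes rose and 19 to 21 fell at an adjusted p under 0.05. The whole array shifted too, with a median of all genes of -0.090, -0.19 and -0.19. The Hox median minus that of all genes was -0.48 under each, the same as with percentile scaling.

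**Figure D2:**
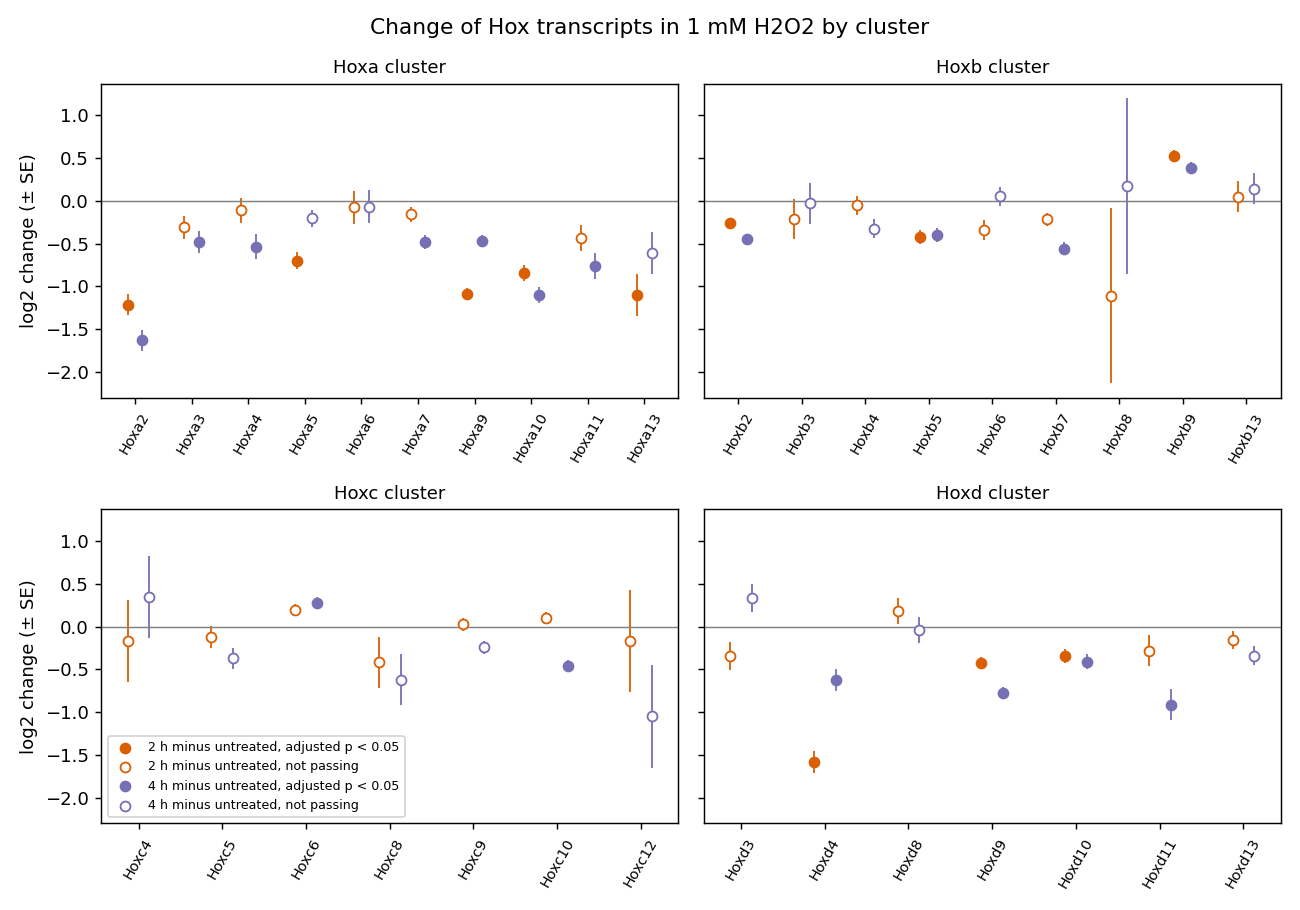
Log2 change (± SE) of each of the 33 tested Hox genes at 2 h (orange) and 4 h (purple) against untreated cells, in a panel per cluster; filled points passed at an adjusted p under 0.05 and open points did not. Hoxd4 at 2 h (-1.58) and Hoxa2 at 4 h (-1.63) were the lowest of the changes that passed, Hoxb9 was the only member that rose at both times (0.53 and 0.39), and Hoxb8, Hoxc4 and Hoxc12 had the widest errors.

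The counts differed between the clusters. Beside them, 15.3% of all genes tested fell at 2 h and 18.4% at 4 h, while 23.7% and 24.6% rose. In Hoxa, 5 of 10 tested members fell at 2 h and 7 of 10 at 4 h. In Hoxb, 2 of 9 fell and 1 rose at 2 h, and 3 fell and 1 rose at 4 h. In Hoxd, 3 of 7 fell at 2 h and 4 of 7 at 4 h. In Hoxc, 0 of 7 passed limma's test at 2 h (1 at an unadjusted p under 0.05), although with unscaled and with spike-in scaled signals 2 and 4 of the 7 fell. The 2 h median of all genes was -0.22 and -0.34 under those scalings. At 4 h 1 Hoxc member fell and 1 rose. Median changes at 2 h were -0.57 for Hoxa, -0.21 for Hoxb, -0.12 for Hoxc and -0.34 for Hoxd, and the difference between clusters was not tested. Anterior, central and posterior members fell at 2 of 5, 3 of 15 and 5 of 13 at 2 h, and at 3 of 5, 5 of 15 and 7 of 13 at 4 h. At 2 h the falls in Hoxb (2 of 9) and among central members (3 of 15) were near the share of all genes. The 2 h falls of Hoxa and of the posterior members include Hoxa13, which entered the test only through the untreated arrays.

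RefSeq's promoter table (GRCm38.p6) matched 22 of the 37 genes with 24 windows. Among members detected on all arrays that have a single window there, upstream sequence is shown for the 3 with the largest falls at 2 h, Hoxd4, Hoxa2 and Hoxa9, and for the member with the highest 2 h change of that set, Hoxd8, which did not pass, so that the letters can be compared. Each is the 250 bases before the annotated start, 5′ to 3′ on the gene's strand, with matches to the searched motifs in capitals on either strand: chr2:74721728-74721977 (+) for Hoxd4, chr6:52164832-52165081 (-) for Hoxa2, chr6:52227371-52227620 (-) for Hoxa9 and chr2:74704365-74704614 (+) for Hoxd8.
Hoxd4: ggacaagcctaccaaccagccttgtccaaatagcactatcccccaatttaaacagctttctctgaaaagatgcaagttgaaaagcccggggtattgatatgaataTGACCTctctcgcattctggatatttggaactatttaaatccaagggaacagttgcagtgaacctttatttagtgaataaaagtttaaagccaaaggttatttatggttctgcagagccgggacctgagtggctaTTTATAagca
Hoxa2: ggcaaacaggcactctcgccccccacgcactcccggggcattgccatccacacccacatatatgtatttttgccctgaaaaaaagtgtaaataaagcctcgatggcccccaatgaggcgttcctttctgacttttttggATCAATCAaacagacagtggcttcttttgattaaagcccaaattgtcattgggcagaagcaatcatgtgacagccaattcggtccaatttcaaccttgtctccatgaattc
Hoxa9: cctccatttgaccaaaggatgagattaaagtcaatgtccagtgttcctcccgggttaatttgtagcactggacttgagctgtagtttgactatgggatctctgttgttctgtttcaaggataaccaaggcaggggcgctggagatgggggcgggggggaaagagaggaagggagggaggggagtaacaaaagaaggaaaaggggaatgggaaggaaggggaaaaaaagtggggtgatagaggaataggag
Hoxd8: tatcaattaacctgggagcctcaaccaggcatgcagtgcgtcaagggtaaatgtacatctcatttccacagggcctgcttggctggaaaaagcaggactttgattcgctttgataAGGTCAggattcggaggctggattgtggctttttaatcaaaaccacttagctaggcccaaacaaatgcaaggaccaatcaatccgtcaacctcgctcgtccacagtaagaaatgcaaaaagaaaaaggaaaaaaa
The TATA box (TATAAA) was found in 16.7% of the 24 Hox windows and 12.4% of all 32851 windows of the same length. The retinoic acid receptor half-site AGGTCA was in 25% and 14%, the Pbx-Hox site TGATNNAT in 16.7% and 7.68%, the AP-1 site TGANTCA in 4.17% and 6.75%, and the antioxidant response element core TGACNNNGC in 4.17% and 10.2%. All were searched on both strands, and none of these motifs overlaps another in the 4 windows shown. Hoxd4 held the letters of a TATA box and of a half-site, both on the opposite strand (TTTATA and TGACCT). Hoxa2 held a Pbx-Hox site on the opposite strand, Hoxd8 a half-site on its own, and the Hoxa9 window none of these letters. The median number of CpG was 12.5 in Hox windows and 6.0 in all windows, while the 4 windows shown had 3, 6, 3 and 6 in the order above. A match is a description of the letters and was not tested as a binding site.

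In the Hoxa cluster, Hoxa2 fell at both times and Hoxa3 at 4 h. Hoxa2, which sets the identity of the second branchial arch, had 18.6% and 21.1% in untreated cells, 7.98% and 9.12% at 2 h, and 5.97% and 6.82% at 4 h. Every treated array lay below both untreated ones, with changes of -1.21 ± 0.12 (adjusted p = 0.00258) at 2 h and -1.63 ± 0.12 (adjusted p = 0.00127) at 4 h, where it was 3.1-fold lower than in untreated cells. Per slide the 4 h change was -1.64 and -1.63. Hoxa3, a factor of thymus and parathyroid development, had 16.2% and 14.5% in untreated cells, 11.9% and 12.8% at 2 h, and 9.82% and 12.3% at 4 h. Its change was -0.31 ± 0.13 (adjusted p = 0.129) at 2 h and -0.48 ± 0.13 (adjusted p = 0.0423) at 4 h, with all treated arrays below the untreated ones, and adjusted p = 0.057 at 4 h with the replicate as a block.

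The central Hoxa members passed at different times. Hoxa4, which patterns cervical vertebrae, had 8.40% and 10.3% in untreated cells, 7.86% and 9.42% at 2 h, and 6.77% and 6.09% at 4 h. The 2 h arrays overlapped the untreated ones, and only the 4 h change passed, at -0.53 ± 0.15 (adjusted p = 0.0421) against -0.11 ± 0.15 (adjusted p = 0.573) at 2 h. Hoxa5, required for lung and airway development, had 23.5% and 25% in untreated cells, 15.2% and 14.7% at 2 h, and 19.4% and 22.9% at 4 h. The 2 h arrays were the lowest, at -0.70 ± 0.10 (adjusted p = 0.00738), and the 4 h arrays lay between, at -0.20 ± 0.10 (adjusted p = 0.164) relative to untreated cells. Hoxa7, which patterns thoracic levels, had 257% and 277% in untreated cells, 232% and 246% at 2 h, and 181% and 201% at 4 h. It stood at -0.16 ± 0.083 (adjusted p = 0.194) at 2 h, which passed under 4 of 18 other settings, median-centred, unscaled or spike-in scaled signals and the replicate block (adjusted p = 0.043), and at -0.48 ± 0.083 (adjusted p = 0.0118) at 4 h. Hoxa6 did not pass at either time, with log2 changes of -0.075 and -0.071.

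Posterior Hoxa members fell in at least 1 comparison each. Hoxa9, a regulator of blood stem cells, had 107% and 103% in untreated cells, 51.2% and 47.4% at 2 h, and 77.3% and 74.2% at 4 h. It was at its lowest on both 2 h arrays, 2.13-fold below untreated cells, with changes of -1.09 ± 0.068 (adjusted p = 0.000787) at 2 h and -0.47 ± 0.068 (adjusted p = 0.00718) at 4 h and no overlap between the time points. Hoxa10, which patterns lumbar vertebrae and the uterus, had 176% and 186% in untreated cells, 94% and 109% at 2 h, and 81.9% and 86.9% at 4 h. It changed by -0.84 ± 0.094 (adjusted p = 0.0038) at 2 h and -1.10 ± 0.094 (adjusted p = 0.00187) at 4 h, so both treated groups lay wholly below the untreated one. Per slide its 4 h change was -1.10 and -1.10. Hoxa11, which acts in the forearm and kidney, had 139% and 151% in untreated cells, 92.8% and 123% at 2 h, and 83.1% and 87.3% at 4 h. Its treated arrays were all lower than the untreated ones, at -0.44 ± 0.15 (adjusted p = 0.0795) at 2 h and -0.77 ± 0.15 (adjusted p = 0.017) at 4 h; with the replicate as a block the 2 h value passed too (adjusted p = 0.041). Hoxa13, needed for hands, feet and the urogenital tract, had 5.26% and 5.19% in untreated cells, 1.92% and 3.12% at 2 h, and 3.18% and 3.68% at 4 h. It changed by -1.10 ± 0.25 (adjusted p = 0.0264) at 2 h and -0.61 ± 0.25 (adjusted p = 0.109) at 4 h, with 1 treated array above background at each time. Hoxa13 entered the test only through the untreated arrays, where it was highest. The lowest scaled signals of any probe well above background on the 2 h arrays were 2.95% and 1.81%.

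**Figure D3:**
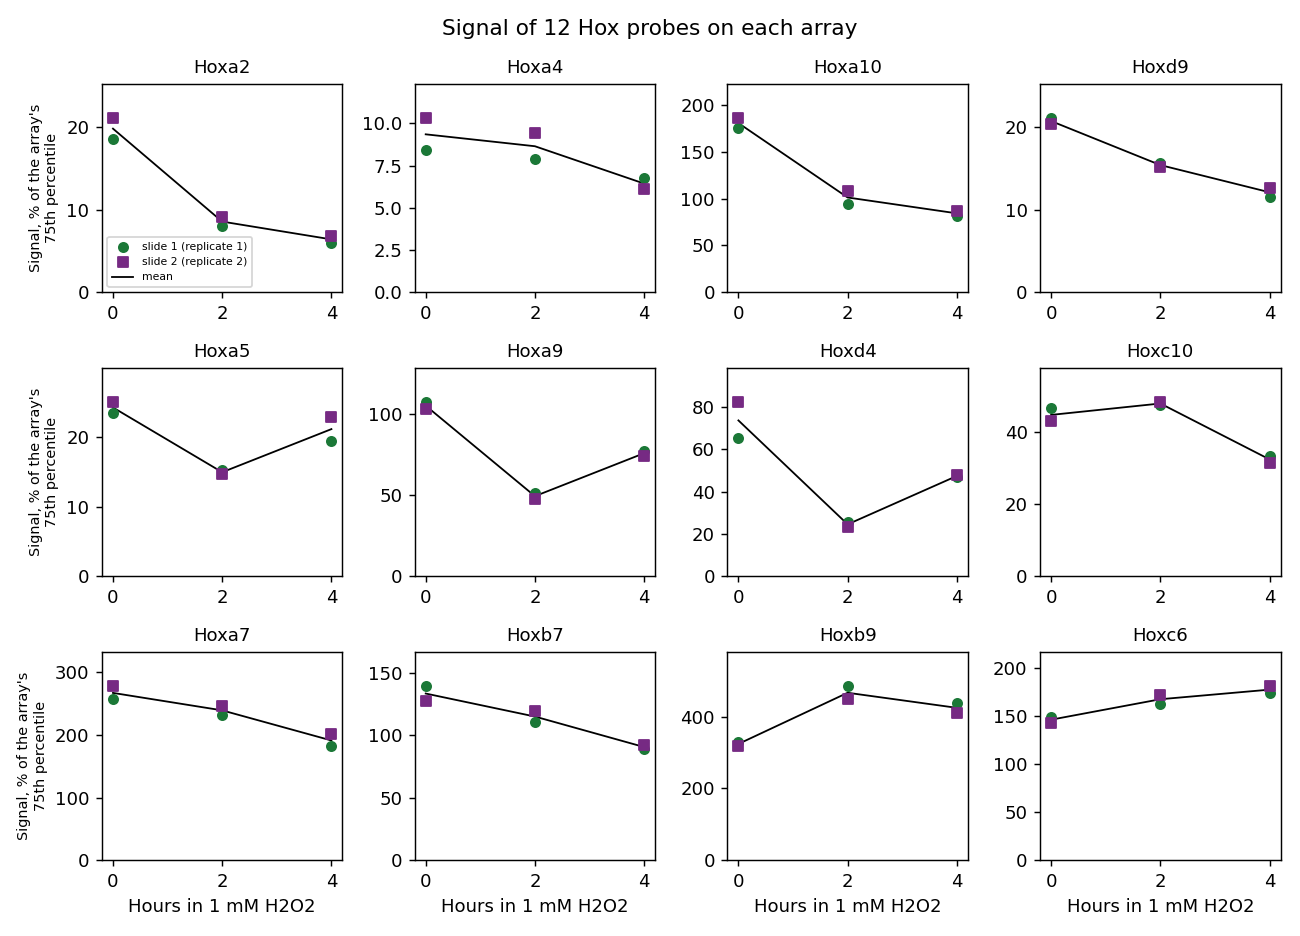
Scaled signal (percent of the array's 75th percentile, linear axes from 0) of 12 Hox genes against hours in 1 mM H2O2, with circles for slide 1, squares for slide 2 and a line through the means. On both slides Hoxa2 and Hoxa10 were lower at 2 h and lower again at 4 h, Hoxa9 and Hoxd4 were lowest at 2 h, and Hoxb9 was higher at both times than in untreated cells.

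The Hoxb cluster held the rise seen at both times. Hoxb9, which patterns thoracic levels, had 329% and 319% in untreated cells, 484% and 449% at 2 h, and 438% and 412% at 4 h. All 4 treated arrays lay above both untreated ones, with changes of 0.53 ± 0.07 (adjusted p = 0.0064) at 2 h and 0.39 ± 0.07 (adjusted p = 0.0133) at 4 h. Its second probe above background on all arrays gave log2 changes of 0.38 and 0.56. The size depends on the scaling, since with spike-in scaling the changes were 0.072 and 0.13 and did not pass.

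Of Hoxb2, Hoxb3 and Hoxb4, Hoxb2 passed. Hoxb2, which patterns the hindbrain, had 224% and 230.1% in untreated cells, 187% and 193% at 2 h, and 163% and 170.2% at 4 h. It fell at both times, with changes of -0.26 ± 0.058 (adjusted p = 0.0276) at 2 h and -0.45 ± 0.058 (adjusted p = 0.00554) at 4 h, but a second probe of this name, above background on 4 arrays, was higher at both times. That probe is annotated to a cDNA with an unclassifiable product, and what it measures was not tested. Hoxb3, also a hindbrain factor, had 21.8% and 27.2% in untreated cells, 18% and 24.7% at 2 h, and 20.6% and 27.5% at 4 h. The groups overlapped, with changes of -0.21 ± 0.24 (adjusted p = 0.511) and -0.031 ± 0.24 (adjusted p = 0.927) at 2 h and 4 h; with the replicate as a block the 2 h value had adjusted p = 0.043. Hoxb4, known for expanding blood stem cells, had 22.5% and 18.9% in untreated cells, 20.7% and 19.2% at 2 h, and 17.2% and 15.7% at 4 h. Its change was -0.051 ± 0.11 (adjusted p = 0.735) at 2 h and -0.32 ± 0.11 (adjusted p = 0.0737) at 4 h, and the 4 h value passed with the replicate as a block (adjusted p = 0.018).

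Among the central Hoxb members, Hoxb5, a factor of the enteric nervous system, had 37% and 34.6% in untreated cells, 26.6% and 26.6% at 2 h, and 28.7% and 25.5% at 4 h. It fell at both times, with changes of -0.43 ± 0.082 (adjusted p = 0.0177) at 2 h and -0.40 ± 0.082 (adjusted p = 0.0191) at 4 h and with no overlap with untreated cells. Hoxb6, expressed in lateral plate mesoderm, had 243% and 215% in untreated cells, 185% and 176% at 2 h, and 259% and 218% at 4 h. The 2 h arrays were lowest, at -0.34 ± 0.11 (adjusted p = 0.0745), or adjusted p = 0.021 with the replicate as a block, and the 4 h arrays overlapped the untreated ones at 0.054 ± 0.11 (adjusted p = 0.733). Hoxb7, a thoracic patterning gene, had 139% and 128% in untreated cells, 111% and 119% at 2 h, and 89.2% and 92.1% at 4 h. Its time points stood in descending order without overlap, at -0.21 ± 0.075 (adjusted p = 0.0833) at 2 h and -0.56 ± 0.075 (adjusted p = 0.00604) at 4 h. Hoxb8 ran from 1.15% to 10.1% and Hoxb13 from 2.05% to 2.81%, with overlapping groups and no call.

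The Hoxc genes include the other rise. Hoxc6, a thoracic patterning gene, had 149% and 143% in untreated cells, 163% and 172% at 2 h, and 174% and 181% at 4 h. Both treated groups lay above the untreated arrays, at 0.20 ± 0.063 (adjusted p = 0.0682) at 2 h and 0.28 ± 0.063 (adjusted p = 0.0248) at 4 h, and the rise shrank to 0.020 with unscaled signals. Hoxc10, a determinant of lumbar motor neurons, had 46.4% and 42.8% in untreated cells, 47.5% and 48.1% at 2 h, and 33.2% and 31.4% at 4 h. It was 0.10 ± 0.069 (adjusted p = 0.301) at 2 h and -0.47 ± 0.069 (adjusted p = 0.00778) at 4 h, with the 4 h arrays below all others. Hoxc9, which sets thoracic motor neuron identity, had 313% and 315% in untreated cells, 317% and 324% at 2 h, and 282% and 250.4% at 4 h. Neither time passed, with changes of 0.029 ± 0.077 (adjusted p = 0.78) at 2 h and -0.24 ± 0.077 (adjusted p = 0.0627) at 4 h.

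The remaining tested Hoxc genes did not pass in any comparison of the limma model used for the values here, but some passed under other settings. Hoxc5 fell at 4 h with median-centred, unscaled or spike-in scaled signals, but not with the replicate as a block (adjusted p = 0.061). Hoxc8 fell at 2 h and at 4 h under 1 of 17 other settings. Hoxc4, the most anterior gene of the cluster, had 7.53% and 11.4% in untreated cells, 6.01% and 11.3% at 2 h, and 8.47% and 16.4% at 4 h. The array of replicate 2 was the higher one at each time and the groups overlapped, with changes of -0.17 ± 0.48 (adjusted p = 0.793) at 2 h and 0.35 ± 0.48 (adjusted p = 0.599) at 4 h. Hoxc5, its neighbour, had 8.98% and 8.65% in untreated cells, 7.23% and 9.05% at 2 h, and 6.55% and 7.07% at 4 h. It stood at -0.12 ± 0.12 (adjusted p = 0.468) at 2 h, overlapping the untreated arrays, and -0.37 ± 0.12 (adjusted p = 0.0697) at 4 h, below them. Hoxc8, which acts in brachial motor neurons, was at -0.42 ± 0.30 (adjusted p = 0.315) and -0.62 ± 0.30 (adjusted p = 0.16) at 2 h and 4 h. Hoxc12 had 12.2% and 3.54% in untreated cells, 6.45% and 5.30% at 2 h, and 3.41% and 2.95% at 4 h. Its 4 h arrays were both below background and its 4 h change was -1.83 and -0.26 on slides 1 and 2, so the size rests on untreated replicate 1 (adjusted p = 0.222).

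In the Hoxd cluster, Hoxd4 showed the deepest fall at 2 h of all Hox genes tested that passed. Hoxd4, which patterns cervical vertebrae and the hindbrain, had 65.1% and 82.1% in untreated cells, 25.6% and 23.4% at 2 h, and 46.8% and 48% at 4 h. The 2 h arrays were lowest, 2.99-fold below untreated cells, and the 4 h arrays lay between, with no overlap. The change was -1.58 ± 0.13 (adjusted p = 0.00155) at 2 h and -0.63 ± 0.13 (adjusted p = 0.0191) at 4 h, and on slides 1 and 2 the 2 h value was -1.35 and -1.81. Hoxd3, its anterior neighbour, had 4.91% and 5.38% in untreated cells, 3.48% and 4.73% at 2 h, and 6.63% and 6.31% at 4 h. It did not pass against untreated cells at 2 h (-0.34 ± 0.16, adjusted p = 0.159) or 4 h (0.33 ± 0.16, adjusted p = 0.164), and the RefSeq spans of Hoxd3 and Hoxd4 overlap. Hoxd8, of the central group, had 47% and 57% in untreated cells, 53.5% and 64.1% at 2 h, and 47% and 54.1% at 4 h. The groups overlapped, with 0.18 ± 0.15 (adjusted p = 0.392) at 2 h, or adjusted p = 0.038 with the replicate as a block, and -0.037 ± 0.15 (adjusted p = 0.865) at 4 h.

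Of the posterior Hoxd genes, which pattern the limb, 2 fell at both times and 1 at 4 h. Hoxd9 had 21% and 20.4% in untreated cells, 15.6% and 15.2% at 2 h, and 11.6% and 12.6% at 4 h. The time points followed each other downwards without overlap, at -0.43 ± 0.068 (adjusted p = 0.0104) at 2 h and -0.78 ± 0.068 (adjusted p = 0.00198) at 4 h. Hoxd10 had 39.7% and 36.8% in untreated cells, 29.2% and 31% at 2 h, and 30.3% and 27.4% at 4 h. Treated arrays were lower than untreated ones at both times, with changes of -0.35 ± 0.083 (adjusted p = 0.0317) at 2 h and -0.41 ± 0.083 (adjusted p = 0.0184) at 4 h. Hoxd11, which acts with Hoxa11 in the forearm, had 5.18% and 5.37% in untreated cells, 3.75% and 5.01% at 2 h, and 2.50% and 3.13% at 4 h. Both 4 h arrays were below background. With these set to the lowest signal of a probe well above background there, the 4 h level was 1.47-fold lower than in untreated cells. The limma test of the measured signals gave adjusted p = 0.0175, and at 2 h the change was -0.28 ± 0.18 (adjusted p = 0.271). After normexp background correction with percentile scaling, the 4 h change of Hoxd11 reversed to 0.454. Hoxd13 had 68.1% and 75.1% in untreated cells, 59.2% and 69.4% at 2 h, and 54.5% and 58.6% at 4 h. It stood at -0.16 ± 0.11 (adjusted p = 0.297) at 2 h and -0.34 ± 0.11 (adjusted p = 0.0614) at 4 h, and the 4 h value passed with the replicate as a block (adjusted p = 0.013).

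Paralogues can be set side by side. In group 9 the 2 h changes were -1.09 for Hoxa9, 0.53 for Hoxb9, 0.029 for Hoxc9 and -0.43 for Hoxd9, so that 2 members fell, 1 rose and 1 did not pass. In group 4 they were -0.11 for Hoxa4, -0.051 for Hoxb4, -0.17 for Hoxc4 and -1.58 for Hoxd4, of which the last alone passed. In group 10 they were -0.84 for Hoxa10, 0.10 for Hoxc10 and -0.35 for Hoxd10, where the Hoxa and Hoxd members fell. In group 2 both tested members fell at 2 h, Hoxa2 (-1.21) and Hoxb2 (-0.26). In group 5 Hoxa5 (-0.70) and Hoxb5 (-0.43) fell at 2 h, while Hoxc5 (-0.12) did not pass. The other groups are not set out here, and differences between paralogues were not tested.

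Comparing 4 h with 2 h directly, 4 members were higher at 4 h, 4 were lower and 25 did not pass. The shares were 12.1% higher and 12.1% lower among the tested Hox genes, beside 13.4% and 16.4% of all genes, or 24.2% beside 29.8% in either direction, so the count of Hox genes was near that of the array. Hoxd4 (0.95 ± 0.13, adjusted p = 0.00885), Hoxa9 (0.62 ± 0.068, adjusted p = 0.00542), Hoxd3 (0.67 ± 0.16, adjusted p = 0.0386) and Hoxa5 (0.50 ± 0.10, adjusted p = 0.0234) were higher at 4 h than at 2 h. Of these, Hoxd4 and Hoxa9 were still lower than in untreated cells at 4 h. Lower at 4 h than at 2 h were Hoxc10 (-0.56 ± 0.069, adjusted p = 0.007), Hoxd9 (-0.35 ± 0.068, adjusted p = 0.0226), Hoxb7 (-0.34 ± 0.075, adjusted p = 0.0305) and Hoxa7 (-0.32 ± 0.083, adjusted p = 0.0462). With the replicate as a block, 16 members passed in this comparison, 6 higher and 10 lower, with Hoxb6 and Hoxc4 added to the higher and Hoxa2, Hoxa10, Hoxb2, Hoxb4, Hoxd8 and Hoxd11 to the lower ones. Without 2 h replicate 1, 1 member passed, without 4 h replicate 2, 3 did, and without 2 h replicate 2 or either untreated array, 4 did. The split of higher to lower was 4 to 1 with unscaled and 6 to 1 with spike-in scaled signals.

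Of 11 genes with a second probe, the sign of the 2 h change was the same for 8 and opposite for Hoxb2, Hoxb8 and Hoxd3, whose second probes were above background on 4, 2 and 1 arrays. For the 5 genes with both probes above background on all 6 arrays the sign was the same. Beside Hoxb9, these second probes gave log2 changes at 2 h and 4 h of -0.17 and -0.0037 for Hoxb6, 0.024 and -0.42 for Hoxc10, -0.35 and -0.45 for Hoxd9 and -0.15 and -0.39 for Hoxd13. Hoxc10 thus again was lower at 4 h than at 2 h, and Hoxd9 was lower at both times. RefSeq spans overlap for Hoxa3 with Hoxa4, Hoxa5 and Hoxa6, for Hoxb3 with Hoxb4, for Hoxd10 with Hoxd11 and for Hoxd3 with Hoxd4, and whether their probes share transcripts was not tested.

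Genes that work with the Hox factors or control them were set beside them. Of 7 Hox cofactors tested, which bind DNA together with Hox proteins, 3 fell at 2 h and 4 at 4 h, and 0 rose at either time (42.9% and 57.1% fell, beside 15.3% and 18.4% of all genes). Meis1 changed by -0.64 ± 0.067 (adjusted p = 0.00324) at 2 h and -0.49 ± 0.067 (adjusted p = 0.00638) at 4 h, and Pknox2 by -0.41 ± 0.10 (adjusted p = 0.0303) and -0.85 ± 0.10 (adjusted p = 0.00383). Pbx2 fell at 2 h (-0.66 ± 0.062, adjusted p = 0.0023) but did not pass at 4 h (-0.20 ± 0.062, adjusted p = 0.062), and Pbx3 fell at 4 h (-0.36 ± 0.081, adjusted p = 0.0241). The median of this list was -0.029 at 2 h and -0.30 at 4 h, beside 0.12 and 0.067 for all genes.

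Of 22 Polycomb genes, whose products keep silent Hox genes repressed, 3 rose and 8 fell at 2 h, and 4 rose and 3 fell at 4 h. The shares that rose were 13.6% and 18.2%, beside 23.7% and 24.6% of all genes, and those that fell 36.4% and 13.6%, beside 15.3% and 18.4%. Cbx2, which reads methylated histone H3 in Polycomb complex PRC1, fell at 2 h (-1.53 ± 0.06, adjusted p = 0.00028) and stood at 0.091 ± 0.06 (adjusted p = 0.278) at 4 h. Eed, a core subunit of PRC2, rose at both times, by 0.53 ± 0.10 (adjusted p = 0.0162) at 2 h and 0.99 ± 0.10 (adjusted p = 0.00275) at 4 h. Ezh1, a PRC2 methyltransferase, fell at 2 h (-0.94 ± 0.17, adjusted p = 0.0141), and Phf19, a PRC2 accessory factor, fell at 4 h (-0.97 ± 0.11, adjusted p = 0.00368). Of 10 Trithorax genes and H3K27 demethylases, 1 rose at 2 h, the demethylase Jmjd3 (0.94 ± 0.11, adjusted p = 0.00394), and 2 fell, the demethylase Utx (-0.35 ± 0.065, adjusted p = 0.0156) and Rbbp5 (-0.33 ± 0.056, adjusted p = 0.0127). That is 30% in either direction, beside 39% of all genes. At 4 h 0 of the 10 passed limma's test (2 at an unadjusted p under 0.05), although 5 and 6 fell with unscaled and with spike-in scaled signals. Under each of those scalings the 4 h median of all genes was -0.19.

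Retinoic acid is a known inducer of anterior Hox genes. Of 15 genes of its synthesis, breakdown and receptors, 2 rose and 3 fell at 2 h, and 2 rose and 8 fell at 4 h. At 2 h 20% fell and 33.3% passed in either direction, near the 15.3% and 39% of all genes, and at 4 h 53.3% fell, beside 18.4%. Rxrg is counted among the 4 h falls but entered the test only through the untreated arrays, and it was above background on 1 treated array. Of the 14 members above background on all arrays, 7 fell at 4 h. Aldh1a3, which makes retinoic acid, rose at both times, by 1.29 ± 0.061 (adjusted p = 0.000423) at 2 h and 1.98 ± 0.061 (adjusted p = 0.000242) at 4 h. Dhrs3, which turns retinaldehyde back to retinol, fell at both, with changes of -0.52 ± 0.061 (adjusted p = 0.00431) at 2 h and -1.33 ± 0.061 (adjusted p = 0.000483) at 4 h. The receptor Rara fell too, with changes of -0.97 ± 0.19 (adjusted p = 0.0176) and -0.96 ± 0.19 (adjusted p = 0.0165), and Rarb, another receptor, fell at 4 h (-0.97 ± 0.12, adjusted p = 0.00428). Of the Cdx and ParaHox genes, 2 of 6 could be tested and 0 passed limma's test at 2 h or 4 h (0 at an unadjusted p under 0.05), with Cdx2 and Gsh2 above background on none of the arrays.

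Of 8 tested genes that lie beside the clusters, 1 rose and 1 fell at 2 h and 1 rose at 4 h, or 25% and 12.5% in either direction beside 39% and 43% of all genes, with medians of 0.094 and 0.064, which were -0.24 and -0.20 with unscaled signals. Evx2, the homeobox gene next to Hoxd13, rose at 2 h (0.40 ± 0.10, adjusted p = 0.0322), and Smug1, a DNA repair glycosylase, fell at 2 h (-0.33 ± 0.083, adjusted p = 0.0372) and rose at 4 h (0.33 ± 0.083, adjusted p = 0.0324). Mesenchymal patterning factors outside the clusters (homeobox, T-box and Twist genes) fell at 12 of 27 at 2 h and 13 of 27 at 4 h, with 1 rise at each time and medians of -0.23 and -0.37. Meox2, a somite and limb muscle factor, changed by -1.12 ± 0.065 (adjusted p = 0.000654) at 2 h and -1.35 ± 0.065 (adjusted p = 0.000529) at 4 h, Alx4 of the limb bud by -1.07 ± 0.067 (adjusted p = 0.000811) and -0.87 ± 0.067 (adjusted p = 0.00149), and Tbx5 of the forelimb by -1.01 ± 0.09 (adjusted p = 0.00195) and -0.93 ± 0.09 (adjusted p = 0.00249). Dlx5 is counted among the falls but entered the test only through the untreated arrays, and it was above background on 1 treated array. Of the 25 members above background on all arrays, 11 fell at 2 h and 12 at 4 h. The shares that fell in this list and among the Hox genes were both above those of all genes (15.3% at 2 h and 18.4% at 4 h), and the lists were not tested against each other.

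**Figure D4:**
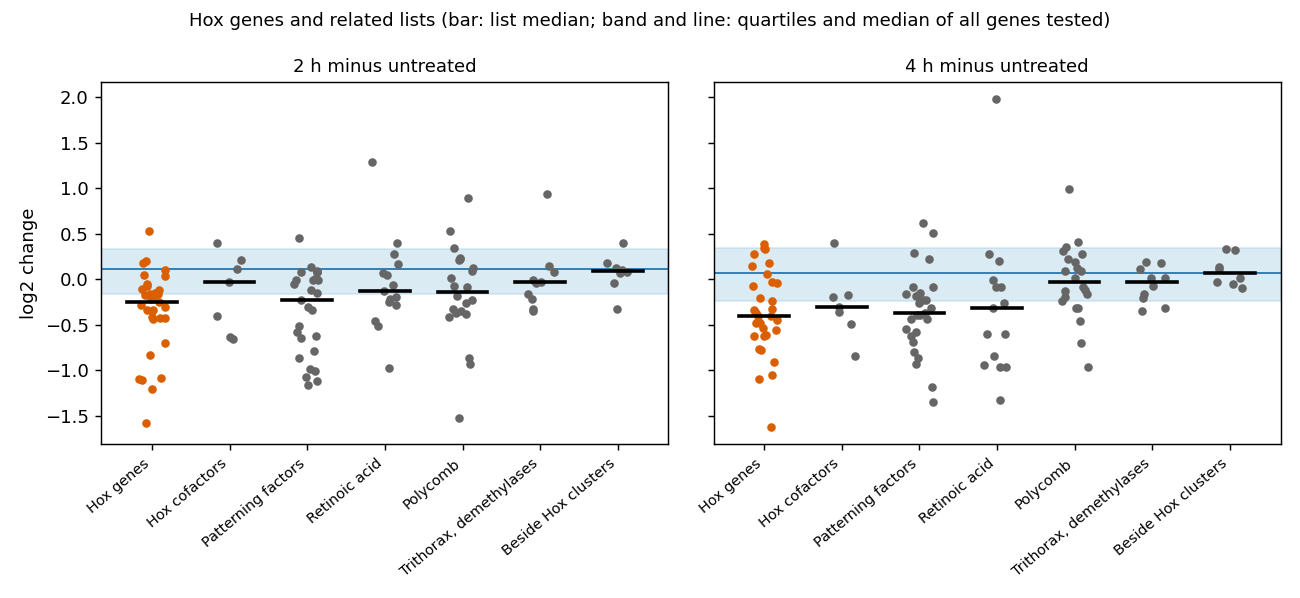
Log2 change at 2 h and 4 h against untreated cells for the tested members of the Hox clusters and of the companion lists, with a point per gene and a black bar at each median; the shaded band and blue line are the quartiles and the median of all 17340 genes. The Hox medians (-0.26 at 2 h and -0.41 at 4 h) lie below the median of all genes (0.12 and 0.067), as do those of the cofactors, patterning factors, retinoic acid, Polycomb and Trithorax lists, while those of the genes beside the clusters (0.094 and 0.064) lie close to it.

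Markers of fibroblasts and of several other cell types differed between the time points as well. The counts below stand beside those of all genes tested, of which 23.7% rose and 15.3% fell at 2 h, and 24.6% and 18.4% at 4 h. The summed scaled signal of the 8 endothelial markers was 111% to 119% at 2 h and 105% to 107% at 4 h, against 55.3% to 61.2% in untreated cells, and 5 of 7 tested rose at 2 h and 3 at 4 h, with Cdh5 above background on none of the arrays. Pecam1, Cldn5 and Robo4 entered the test only through treated arrays, where they were high, and for Pecam1 and Cldn5 these were the 2 h arrays. Pecam1 is counted among the 4 h rises, but it was below background on both untreated and both 4 h arrays (2.33% and 2.31% at 4 h). That call thus compares groups in which it was not detected. Of the 4 above background on all arrays, Vwf and Emcn rose at 2 h and Vwf at 4 h, while Kdr and Tek did not pass. Vwf, the von Willebrand factor, changed by 1.81 ± 0.068 (adjusted p = 0.000264) and 2.22 ± 0.068 (adjusted p = 0.000242). The 12 fibroblast markers summed to 153600% to 156100% at 2 h and 145300% to 156700% at 4 h, against 121400% to 129300% in untreated cells. Of them, 6 rose and 1 fell at each time. The one that fell was the growth factor receptor Pdgfra, with changes of -1.08 ± 0.077 (adjusted p = 0.00111) at 2 h and -0.70 ± 0.077 (adjusted p = 0.00363) at 4 h. The summed haematopoietic markers were 221% to 241% at 2 h and 213% to 220.3% at 4 h, against 181.5% to 183% in untreated cells, and 3 of 6 tested rose at each time. Among these rises, Itgam entered the test only through the 2 h arrays, where it was high. Of the 4 haematopoietic markers above background on all arrays, 2 rose at each time. Epithelial markers, with Cldn4 on no array, summed to 423% to 439.5% at 2 h and 384% to 432.5% at 4 h, against 312% to 349% in untreated cells, and 3 of 6 rose at each time. Cdh1, among these rises, entered the test only through treated arrays, where it was high. Of the 4 epithelial markers above background on all arrays, 2 rose at each time. Neural markers, with Sox2 and Pax6 on no array, summed to 572% to 600% at 2 h and 494.5% to 531% at 4 h, against 495% to 496% in untreated cells, and 1 rose and 1 fell of 4 at each time. Muscle markers, with Myod1 and Myf5 above background on no array, summed to 3553% to 4757% at 2 h and 3358% to 3911% at 4 h, against 3098% to 4163% in untreated cells, so the groups overlapped, and 3 of 6 rose at each time. The 5 pluripotency markers summed to 8.18% to 12.9% at 2 h and 4.83% to 8.27% at 4 h, against 5.18% to 7.80% in untreated cells, and 0 could be tested. The part of these shifts in the Hox results was not tested.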

How the data were processed

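The 6 arrays were scanned with a G2505B scanner and extracted with Feature Extraction 9.5.3.1 (protocol GE1-v5_95_Feb07), per the file headers. The deposited scanner files and the table of values hold fluorescence intensity, and the table equals the processed signal of the scanner files within 0.0005. From that deposited intensity, log2 values were computed here and each array's 75th percentile over 43379 non-control spots was subtracted. Between 99 and 149 outlier spots per array were left out and repeated spots were averaged. Genes entered the test when both arrays of any time point were well above background; it used limma 3.58.1 (R 4.3.3, data.table package 1.17.8; 3 residual and 1.63 prior degrees of freedom), which was also tested on simulated data, with Benjamini-Hochberg adjustment over 17340 genes. The precision is limited by having 2 arrays at each time point. Of the 48 Hox probes, 43 matched a RefSeq accession, always with the same symbol.

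Counts and medians cover 37 Hox genes; 1 further Hox gene is not reported here. The Hox genes and the companion lists were chosen with earlier results of these data known. Hox genes that passed in any comparison, or were above background on all arrays, are given with values; up to 4 members of each companion list are named, by the size of their change. The markers Vwf and Pdgfra were named after their values were seen. Each replicate number marked 1 slide, per the file headers, and deviations of same-numbered arrays from their group means correlated at 0.248, 0.191 and 0.242 over all genes tested (-0.239, 0.707 and -0.309 over the 33 Hox genes), so the replicate was used as a block in an alternative. Other alternatives changed scaling, background correction, filter, probe choice and arrays. Figures used Python 3.11.15 with pandas 2.3.3 and matplotlib 3.10.9.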

Additional observations from a re-analysis of the deposited data

Results flagged for a closer look

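For 8 Hox genes the change against untreated cells differed between the 2 exposure times, as tested by 4 h against 2 h in the limma model. Hoxd4 (0.952), Hoxd3 (0.673), Hoxa9 (0.621) and Hoxa5 (0.496) were higher at 4 h than at 2 h on the log2 scale. Hoxc10 (-0.565), Hoxd9 (-0.349), Hoxb7 (-0.343) and Hoxa7 (-0.325) were lower at 4 h than at 2 h. Of these, Hoxa9 passed under each of the 18 other settings run, and Hoxa7 and Hoxd9 under 5 of 18.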

How the results depend on the processing

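The 36 changes that passed were recomputed under up to 18 other settings each, giving 645 values, of which 474 kept call and direction, 163 lost the call and 8 reversed. Calls held under every setting for Hoxa9, Hoxa10 and Hoxd4 at 2 h, Hoxa10 and Hoxb7 at 4 h, and Hoxa9 at 4 h against 2 h. At 2 h, 11 Hox genes passed, with 17 under median centring, 19 under no scaling, 24 under spike-in scaling (these all lower), 3 under normexp with the 75th percentile and 7 without a filter on dim probes; leaving out an array gave 6 (without untreated replicate 1 or without 2 h replicate 1; 7 without untreated replicate 2) to 11. At 4 h, 17 passed, with 5 under that normexp setting and 9 without a filter; leaving out an array gave 7 (without untreated replicate 1) to 16, with 9 on omitting untreated replicate 2 and 11 on omitting a 4 h array. At 4 h against 2 h, 8 passed, with 5 unscaled, 2 under normexp, 3 without a filter and 16 with the replicate block; leaving out an array gave 1 (without 2 h replicate 1; 3 without 4 h replicate 2, and 4 without either untreated array or 2 h replicate 2) to 6. The replicate block gave 16 and 18 calls in the first 2 comparisons. Under median centring, no scaling and spike-in scaling the 2 h median of all genes was -0.081, -0.22 and -0.34. The Hox median minus that of all genes was -0.37 at 2 h under each of these, as with percentile scaling. Under normexp with the 75th percentile, log2 values reversed at 4 h for the Hox median (0.121), Hoxa3 (0.195), Hoxa4 (0.421), Hoxd11 (0.454) and Hoxd9 (0.0222), and at 4 h against 2 h for the median (0.278) and Hoxd9 (0.226); spike-in scaling turned that last median to 0.0104. Averaging all probes of a gene reversed Hoxb2 at 2 h (0.339) and 4 h (0.0769) and Hoxd3 at 4 h against 2 h (-0.236). The causes were not tested. The number of members detected on all arrays, 25, was 35 by the scanner's test of signal against background alone and 27 with any probe, and 25 to 27 without 1 array. Members below background on both arrays of a time point have only a bound there.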
